A study of Mus musculus with 50 samples.

Results

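G protein alpha subunits are the GTP-binding switches that carry the signal of a G protein-coupled receptor into the cell. On the arrays of this study they were taken as every non-control clone whose name begins with the family name or is the full name of a listed subunit, which gave 22 clones of 11 genes among 22824 clones in all. The tissue was the paraventricular nucleus of the hypothalamus (PVN), the region from which the hormonal stress axis is driven, punched together with the adjacent region from male C57BL/6J and DBA/2J mice of 3 to 5 months. In each strain 1 group was left non-stressed, 1 was killed 4 h and 1 was killed 8 h after 5 min of forced swimming, with single housing for all groups. All were killed at the same time of day, so the 4 h and 8 h groups swam at different times of day. Time since swimming and time of day of the swim cannot be told apart here. RNA of 6 animals made 1 pool, so that 6 pools were compared in 5 comparisons of 10 two-colour cDNA arrays each, 5 arrays with the test pool in Cy5 and 5 with it in Cy3. Since all 10 arrays of a comparison hold the same pair of pools, they are technical repeats. The p-values below therefore speak of the pools of RNA that were hybridised, or of 2 clones on the same arrays, and not of the conditions.

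In the resting state the alpha subunit holds GDP and sits with a beta and a gamma subunit. An activated receptor exchanges GDP for GTP, and the freed alpha subunit acts on its effector until its own GTPase, speeded by RGS proteins, ends the signal. Gs raises cyclic AMP, the Gi and Go proteins lower it or open potassium channels through the freed beta and gamma subunits, Gq and G11 act through phospholipase C, and G12 and G13 form a class of their own. In the PVN, receptors of these classes carry the effects of noradrenaline, opioids, neuropeptides and of the releasing hormones themselves.

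By class, the Gi and Go group was represented by 4 clones of Gnao1, 3 of Gnai1, 2 of Gnai2, 1 of Gnai3 and 3 of Gnaz. The transducins Gnat1 and Gnat2, alpha subunits of rod and cone photoreceptors, had 1 clone each. Gnas, the alpha subunit of Gs, and Gna11 had 1 clone each, Gna12 had 2 and Gna13 had 3. No clone carried the name of Gnaq. In the RefSeq table (assembly GRCm38.p6), which was used for names and order only, Gnat2 and Gnai3 are direct neighbours and 1 gene lies between Gnai2 and Gnat1. The clones are identified by their spot number on the array and their name, and clone sequences were not used here.

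Ratios are given as log2 of the test pool over the reference pool by the dyes named in the labels, that is DBA/2J over C57BL/6J and stressed over non-stressed. The study reads the signs the other way round in all 5 comparisons, and the files do not settle which reading is right. For Gnai2 in DBA/2J at 4 h the study takes its direction from real-time PCR and in situ hybridisation as well as from the arrays, and these were not analysed here. The deposited log ratios run in the labelled direction, with a correlation over spots of 0.82 to 0.97 on the 50 arrays. Genes known to differ between the strains gave no answer, since Nnt (log2 ratio -0.29, adjusted p = 0.60), Gpnmb (-0.11, adjusted p = 0.86) and H2-Ea (-0.013, adjusted p = 0.99) did not pass the limma test and were above the empty spots described below on no array of that comparison. Every direction below therefore holds for the labelled dyes and turns with the sign. Of the genes that define PVN neurons, the clone of Avp was brighter than the empty spots in 29 of 100 channels, that of Oxt in 4 and that of Trh in 47.

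How bright a spot was decided how much its ratio says. Each array carried 1170 empty spots, and a channel was counted as above background where the spot was brighter than 95% of them. Gnas at spot 2990 and Gnao1 at spot 12672 passed in all 100 channels of the 50 arrays, and Gnao1 at spot 3722 passed in 98. Gna13 at spot 21436 passed in 67, Gnai2 at spot 4032 in 49 and Gnai2 at spot 9897 in 28. The remaining 16 clones passed in 25 channels or fewer, and Gnat2, Gnaz at spot 7465 and Gna13 at spot 17663 passed in none. At least 10 of 20 channels were passed by 11 of the 22 clones in the C57BL/6J 4 h comparison, beside 58.6% of all clones. In the DBA/2J 8 h comparison they were passed by 4, beside 7.01% of all clones. The empty spots themselves were bright there (median over arrays of their 95th percentile, 1885 in Cy5, against 202 in the C57BL/6J 4 h comparison).

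**Figure D1:**
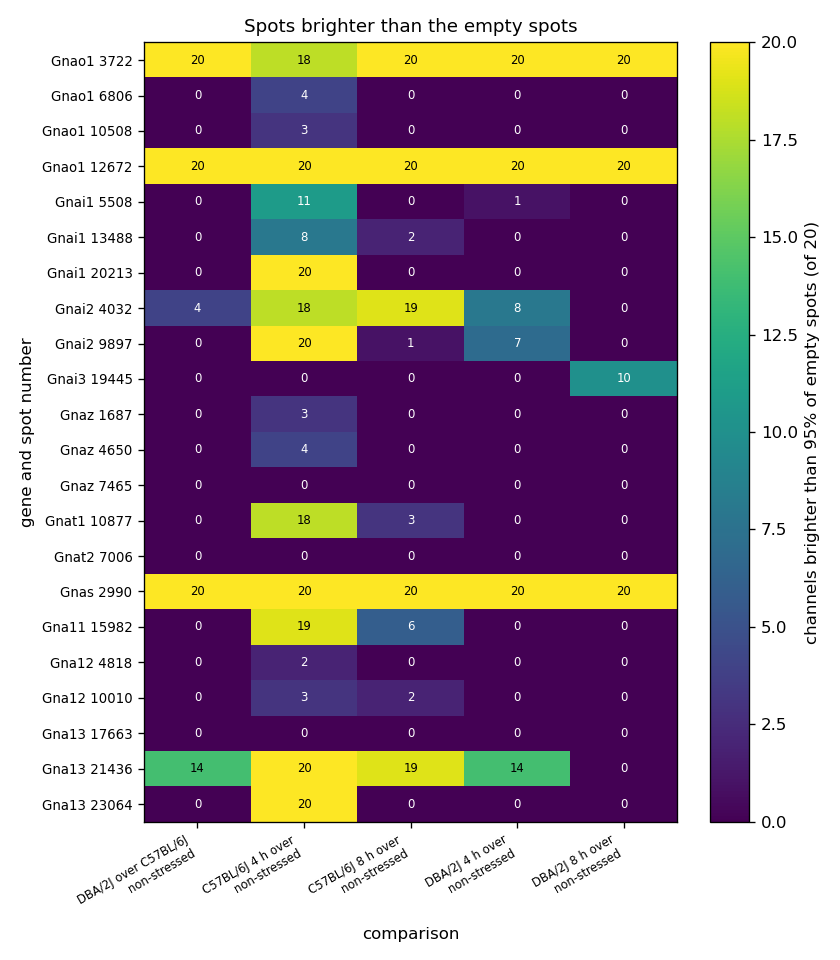
For each alpha subunit clone (rows, gene and spot number) and each comparison (columns), the number of the 20 channels in which the spot was brighter than 95% of the empty spots. Gnas 2990 and Gnao1 12672 are at 20 throughout and Gnao1 3722 at 18 or 20, while most other clones are at 0 outside the C57BL/6J 4 h arrays.

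Some spots changed brightness between sets of arrays in both dyes at once. Gnai1 at spot 20213 had a median raw intensity of 1031 in Cy5 on the C57BL/6J 4 h arrays, and at most 109.6 in each of the other 4 sets. Gna13 at spot 23064 had 881 there and at most 83.9 elsewhere. Gnai3 had 2320 on the DBA/2J 8 h arrays and at most 106 on the others. Gnai2 at spot 9897 shifted less, with 944 on the C57BL/6J 4 h arrays and at most 410 elsewhere. The non-stressed C57BL/6J pool was hybridised in 3 of these sets and the non-stressed DBA/2J pool in 3. The former thus met the bright and the dim form of the Gnai1 and Gna13 spots, and the latter both forms of the Gnai3 spot. No DBA/2J pool met the bright form of the Gnai1 and Gna13 spots, and no C57BL/6J pool that of Gnai3. Ratios are taken within an array, and no level of 1 clone is set against that of another here.

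A clone was called where the log2 ratio was at least 0.5 either way, that is 1.41-fold, with a limma p under 0.05 after Benjamini-Hochberg adjustment over the 22824 clones. Between the strains at rest, 1 of the 22 clones was called (4.55%), beside 3.63% of all clones. In DBA/2J at 4 h, 1 of 22 was called, beside 0.153% of all clones. None was called in C57BL/6J at 4 h (all clones 0.289%), in C57BL/6J at 8 h (0.0832%) or in DBA/2J at 8 h (0.158%). At an unadjusted p under 0.05, limma gave 2, 2 and 4 member clones in those 3 comparisons (9.09%, 9.09% and 18.2%, beside 12.3%, 9.27% and 12.03% of all clones). The methods' t-test with the same adjustment and fold called 0, 1 and 0 (all clones 0.451%, 0.171% and 0.390%). The median log2 ratio of the 22 clones lay between -0.053 and 0.078 in the 5 comparisons, and that of all clones between -0.0055 and 0.0081. The share of alpha subunit clones called between the strains was close to the background, and both calls were of single clones.

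**Figure D2:**
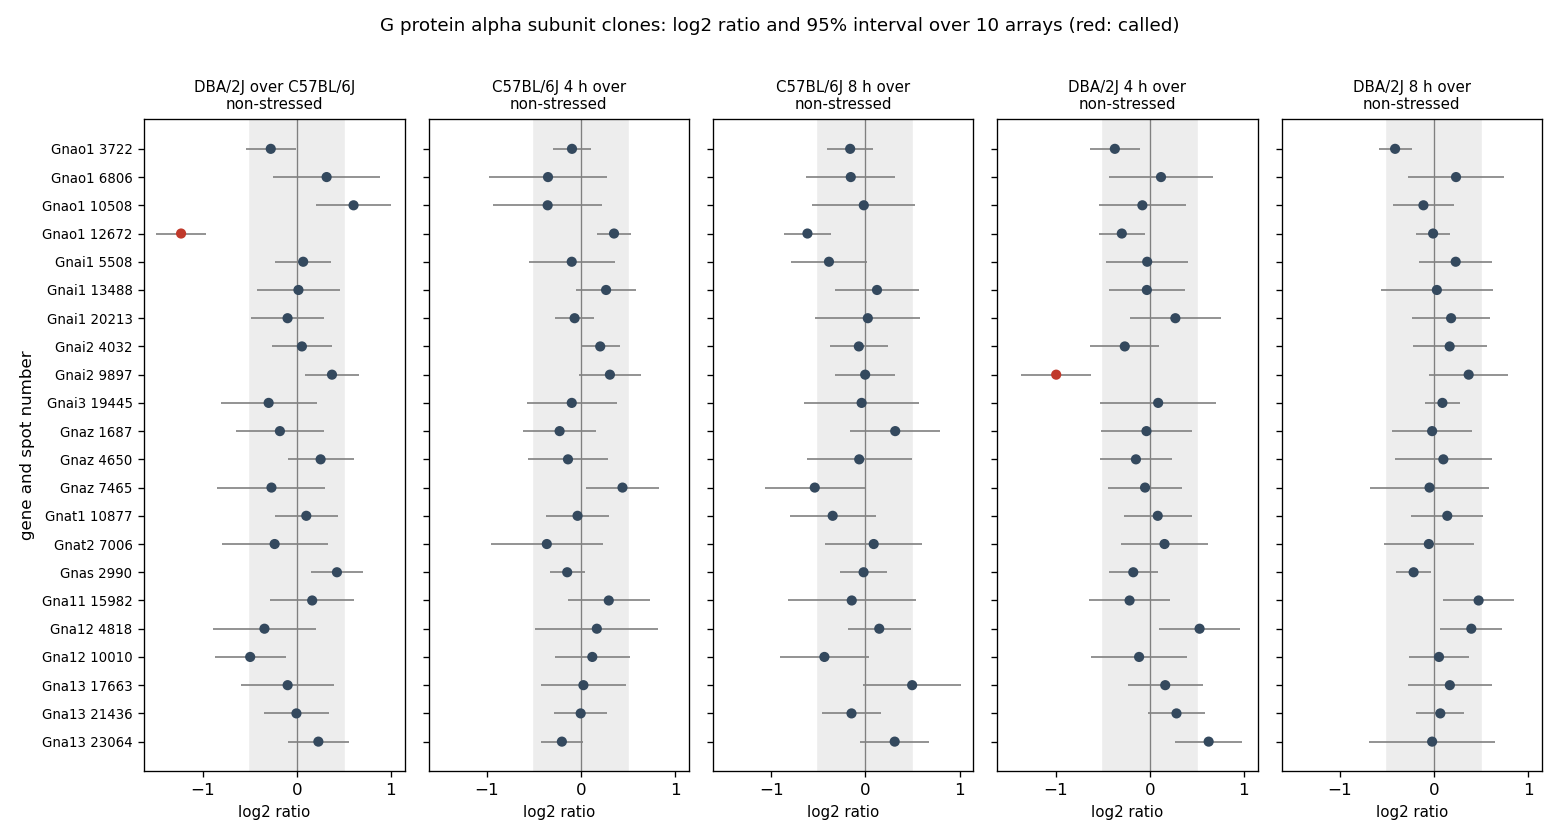
Log2 ratio (horizontal axis) of each of the 22 clones in the 5 comparisons, with 95% intervals from limma over 10 arrays. The grey band spans -0.5 to 0.5 and red marks the 2 called values, Gnao1 12672 between the strains at -1.23 and Gnai2 9897 in DBA/2J at 4 h at -0.99.

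Gnao1, the alpha subunit of Go and the most abundant G protein of neurons, gave the clearest difference between the strains. On the 10 arrays, spot 12672 had log2 ratios of DBA/2J over C57BL/6J from -1.40 to -1.13 with DBA/2J in Cy5 and from -1.30 to -1.02 with DBA/2J in Cy3. All 10 arrays gave a lower value in DBA/2J, with no overlap with 0. The fit gave -1.23 (SE 0.12, n = 10 arrays, limma adjusted p = 8.2e-05), which is 2.34-fold lower in DBA/2J by the labelled dyes or 1.23 higher on the log2 scale with the sign turned. The call held in all 13 alternatives and without each array in turn. In bulk tissue, fewer cells that express a gene and less RNA per cell cannot be told apart.

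The other Gnao1 clones were not called between the strains. Spot 3722, as bright as 12672 on the test against empty spots, ranged from -0.18 to -0.012 with DBA/2J in Cy5 and from -0.64 to -0.39 with DBA/2J in Cy3. The fit gave -0.28 (SE 0.12, limma adjusted p = 0.30). All 10 of its arrays were below 0, but none reached down to the highest value of spot 12672, -1.02. The dim spots 10508 and 6806 pointed upwards, at 0.60 (SE 0.19, adjusted p = 0.098) and 0.32 (SE 0.27, adjusted p = 0.63), with no channel above the empty spots in this comparison. Spot 10508 was called with print-tip loess (0.67) and with the file header's date as a block (0.61).

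Markers of other cells moved between the same 2 pools. Of 122 clones of 53 marker genes, 14 were called higher and 2 lower in DBA/2J, beside 1.61% and 2.02% of all clones. Glul, the glutamine synthetase of astrocytes, was called in 4 of 9 clones, the highest at 1.22. Mbp, a gene of myelin, was called higher in 4 of 6 clones. Single clones of Cnp (-1.06) and Mobp (-0.89), also myelin genes, were called lower. The globin Hbb-b1 was called in 2 of 3 clones, up to 1.05, and Tcf7l2, a marker of the thalamus, in 1 of 3 clones, at 0.67. None of 20 clones of 7 neuronal genes was called, with ratios from -0.26 to 0.52. The part of these cells in the Gnao1 difference was not tested.

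After forced swimming the C57BL/6J ratios of Gnao1 at spot 12672 went to opposite sides of 0. At 4 h the 10 arrays lay between 0.14 and 0.66 with a median of 0.33, all above 0. The fit gave 0.35 (SE 0.084, limma adjusted p = 0.12), which did not reach the call. At 8 h they lay between -1.14 and -0.14 with a median of -0.61, all below 0. That fit gave -0.62 (SE 0.12, adjusted p = 0.10) and missed the adjusted threshold. It passed with median centring (-0.74), with the filter on dim clones, with the methods' t-test, with the header date as a block and with all 50 arrays in 1 fit. Of the marker clones, 1 of 7 of Snap25, a gene of synaptic vesicle release, was called in the same comparison at 0.89, and its part was not tested.

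In DBA/2J the dye orientation split the 4 h values of the same spot. With the stressed pool in Cy5 the 5 arrays lay between -0.86 and -0.57, and with it in Cy3 between -0.0039 and 0.16. The orientations did not overlap, and the fit, which carries a dye term, gave -0.30 (SE 0.11, limma adjusted p = 0.35). At 8 h the values lay between -0.26 and 0.34, with a fit of -0.010 (SE 0.083, adjusted p = 0.97).

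Spot 3722 gave a different course. It was below 0 on 9 of 10 arrays in DBA/2J at 4 h (-0.70 to 0.041, fit -0.37, SE 0.12, limma adjusted p = 0.28) and on all 10 at 8 h (-0.54 to -0.30, fit -0.41, SE 0.080, adjusted p = 0.065). Median centring took the 8 h value to -0.51, which was called. The same Snap25 clone (-0.56) and 1 clone of Tcf7l2 (-0.52) were called in DBA/2J at 8 h, and their part was not tested. In C57BL/6J its fits were -0.096 at 4 h and -0.16 at 8 h, neither called. The dim spots 6806 and 10508 spread from -1.89 to 1.70 over the 4 stress comparisons, with fits from -0.35 to 0.23, none called.

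**Figure D3:**
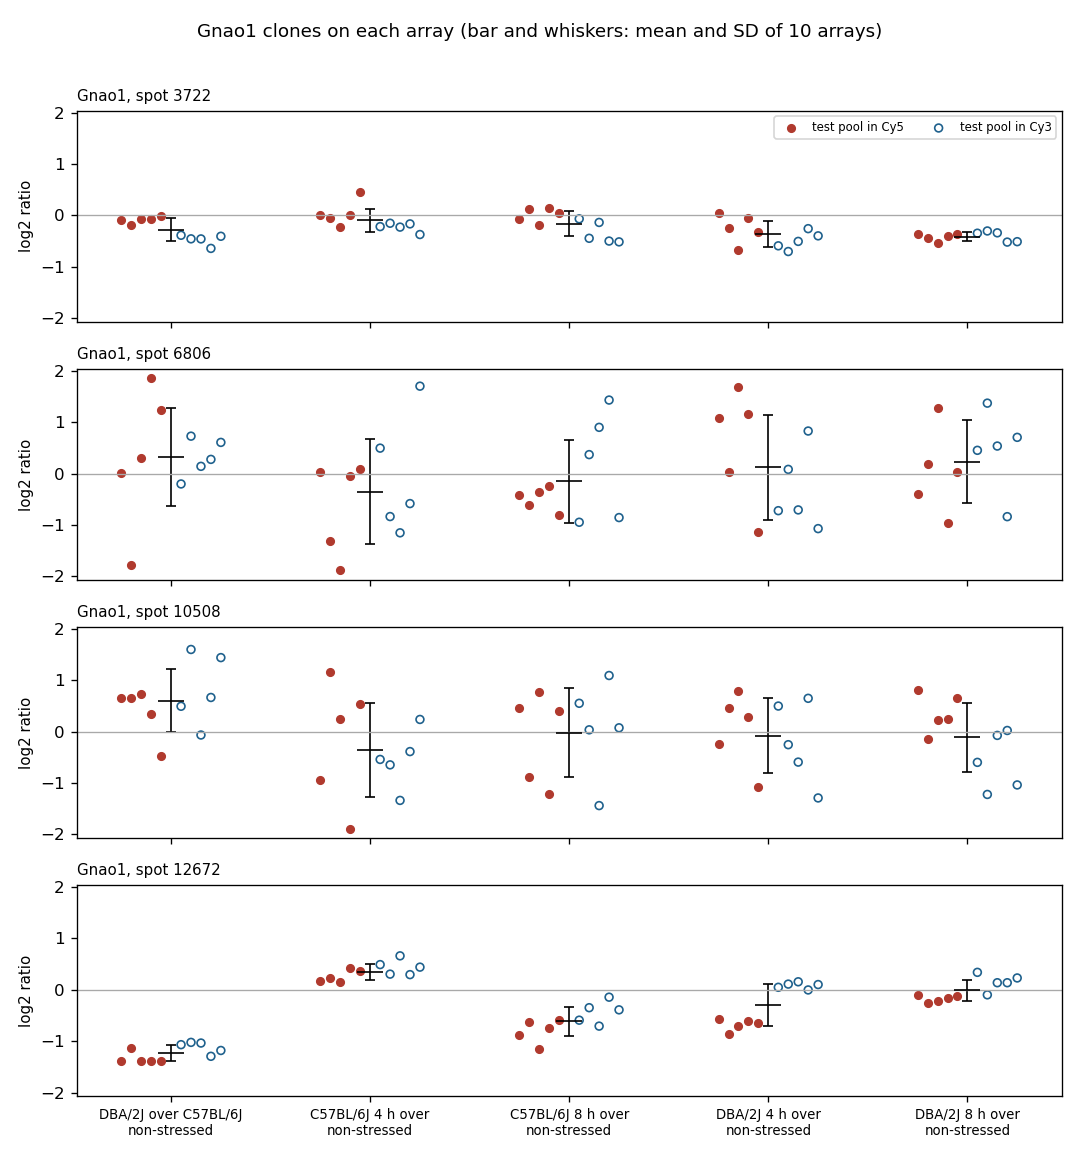
Log2 ratios of the 4 Gnao1 clones on each array (vertical axis) in the 5 comparisons, filled red for the test pool in Cy5 and open blue for it in Cy3, with mean and SD of 10 arrays. Spot 12672 sits near -1.23 between the strains while spot 3722 stays near -0.28, and the dim spots 6806 and 10508 scatter widely.

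Gnai2, the alpha subunit of the most widespread inhibitory G protein, gave the only stress call among the 22 clones. In DBA/2J at 4 h, spot 9897 read 0.096 on 1 array with the stressed pool in Cy5 and -1.23 to -0.92 on the other 4. With the stressed pool in Cy3 it read -1.62 to -0.42. The spot was thus lower in the stressed pool on 9 of 10 arrays, with replicate 1 apart. The fit gave -0.99 (SE 0.17, n = 10, limma adjusted p = 0.035), 1.99-fold lower by the labelled dyes, or 0.99 higher on the log2 scale with the sign turned. The study reports an increase here, by real-time PCR as well.

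This call was marginal. It was lost when any of replicates 2 to 10 was left out (log2 ratio -1.08 to -0.93, adjusted p 0.051 to 0.12) and remained without replicate 1 (-1.11, adjusted p = 0.032). It also ended without background subtraction (-1.10, adjusted p = 0.090), with the averages of the 2 orientations, within either orientation, and among the 8 arrays of 1 header date (-1.06, adjusted p = 0.17). The stressed pool was brighter than the empty spots on 1 of the 10 arrays and the non-stressed pool on 6. The filter on dim clones removed the spot. In this comparison 1 of 122 marker clones was called, Trh, the thyrotropin releasing hormone of PVN neurons, at -0.75 (SE 0.12, adjusted p = 0.031), and its part in the Gnai2 value was not tested.

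In the other comparisons spot 9897 was not called. Between the strains all 10 arrays were above 0 (0.13 to 0.68, fit 0.37, SE 0.13, limma adjusted p = 0.17), though no channel was above the empty spots. In C57BL/6J it gave 0.31 at 4 h (SE 0.15, adjusted p = 0.45), where all 20 channels were above the empty spots, and -0.0024 at 8 h. In DBA/2J at 8 h it gave 0.37 (SE 0.19, adjusted p = 0.48) with a spread from -0.86 to 1.52 and no channel above the empty spots.

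The second Gnai2 clone, spot 4032, was not called anywhere. In DBA/2J at 4 h it lay between -1.17 and 0.74, below 0 on 8 of 10 arrays, with a fit of -0.27 (SE 0.17, limma adjusted p = 0.62). Its fits in the other 4 comparisons ran from -0.070 to 0.20.

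**Figure D4:**
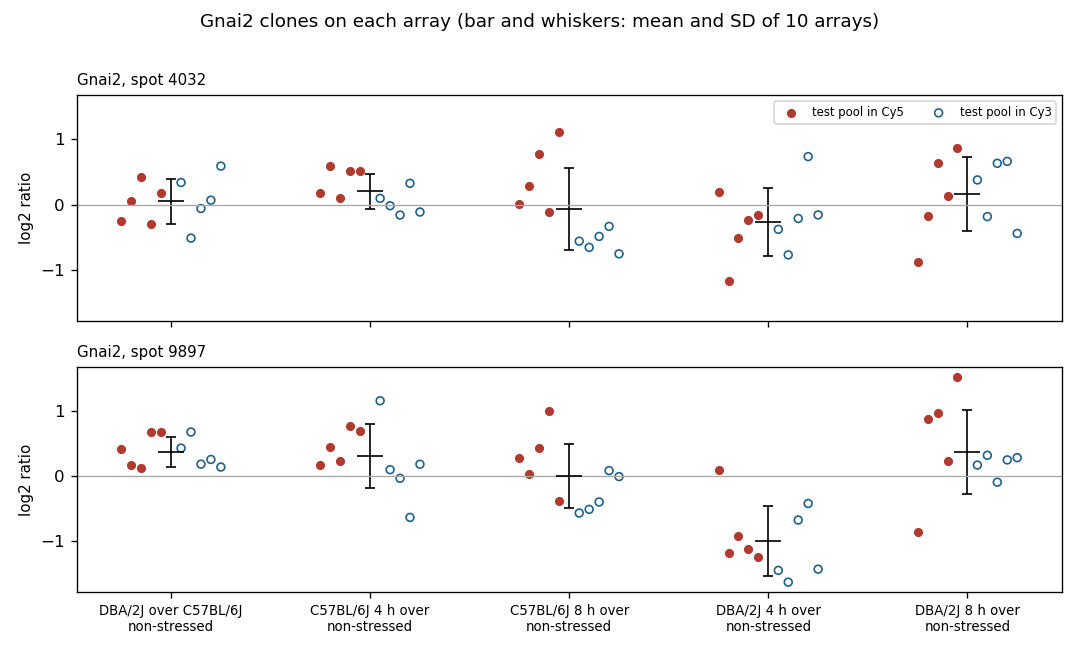
Log2 ratios of the 2 Gnai2 clones on each array (vertical axis) in the 5 comparisons, filled red for the test pool in Cy5 and open blue for it in Cy3, with mean and SD of 10 arrays. In DBA/2J at 4 h, 9 of 10 arrays of spot 9897 lie at -0.42 or lower, while spot 4032 is centred on -0.27 and crosses 0.

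The remaining Gi class genes showed no call. The 3 Gnai1 clones had fits between -0.39 and 0.27 over the 5 comparisons. Gnai3 lay between -0.30 and 0.090, and its smallest SE, 0.086, was on the DBA/2J 8 h arrays, where its spot passed the empty spots in 10 of 20 channels. Gnaz, a form resistant to pertussis toxin, had 3 dim clones with fits from -0.54 to 0.44. Of the transducins, Gnat1 lay between -0.35 and 0.14 and Gnat2 between -0.36 and 0.16. Gnat1, a gene of rods, was above the empty spots in 18 of 20 channels of the C57BL/6J 4 h arrays, and in 21 of 100 over all arrays. On the C57BL/6J 4 h arrays 58.6% of all clones passed in at least 10 of 20 channels, so this does not show that the gene was expressed.

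Gnas, which stimulates adenylate cyclase and stems from an imprinted locus, was bright on every array. Between the strains its 10 arrays lay between 0.18 and 0.64 with a median of 0.46, all above 0. The fit gave 0.43 (SE 0.13, limma adjusted p = 0.089), which is below the fold used for a call, and print-tip loess (0.26) and the deposited ratios (0.24) gave less. After stress it gave -0.15 and -0.019 in C57BL/6J at 4 h and 8 h. The DBA/2J fits were -0.17 and -0.22, with 9 and 8 of 10 arrays below 0 and limma adjusted p of 0.65 and 0.32.

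Gna11, a partner of phospholipase C, gave fits from -0.21 to 0.47, the highest in DBA/2J at 8 h (SE 0.17, limma adjusted p = 0.29). Through RefSeq synonyms, 5 further clones belong to this family under names that the rule does not take, 3 of Gnaq and 1 each of Gnas and Gna11. They were found after the files were read and are counted nowhere else. None of the 5 was called in any comparison. The Gnaq clone at spot 7366 gave 0.51 between the strains (SE 0.15, adjusted p = 0.081) and -0.52 in C57BL/6J at 4 h (SE 0.11, adjusted p = 0.095, below 0 on 10 of 10 arrays). The Gnaq clones at spots 10541 and 23066 gave 0.15 and 0.053 between the strains and -0.22 and -0.25 in C57BL/6J at 4 h. The Gnas clone at spot 5699 gave 0.66 in C57BL/6J at 8 h (SE 0.18, adjusted p = 0.26) with no channel above the empty spots, and the Gna11 clone at spot 19808 lay between -0.37 and 0.46.

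Gna12 and Gna13, which signal to the cytoskeleton, were mostly dim. The Gna12 clones had fits from -0.49 to 0.53, the highest at spot 4818 in DBA/2J at 4 h (SE 0.20, limma adjusted p = 0.34). The Gna13 clone at spot 21436, above the empty spots in 67 of 100 channels, stayed between -0.15 and 0.28. Spot 23064 gave 0.63 in DBA/2J at 4 h (SE 0.16, adjusted p = 0.16) with 9 of 10 arrays above 0 and no channel above the empty spots.

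Whether the stress responses differed between strains or times was tested on the differences themselves, over the 20 arrays of each pair of comparisons. At 4 h the strains differed in 3 of the 22 clones (13.6%), beside 2.34% of all clones. Gnai2 at spot 9897 differed by -1.30 (DBA/2J less C57BL/6J, SE 0.23, limma adjusted p = 0.0034), from 0.31 in C57BL/6J and -0.99 in DBA/2J. Gnao1 at spot 12672 differed by -0.65 (SE 0.12, adjusted p = 0.0043), from 0.35 and -0.30. Gna13 at spot 23064 differed by 0.83 (SE 0.19, adjusted p = 0.022), but on the DBA/2J 4 h arrays neither pool was above the empty spots, and the call was lost with all 50 arrays in 1 fit (adjusted p = 0.097). With the replicate number as a block none of the 3 was called (adjusted p 0.054 to 0.067). The second Gnai2 clone, spot 4032, was not called (0.20 in C57BL/6J, -0.27 in DBA/2J). Nor were the second bright Gnao1 clone, spot 3722 (-0.096 and -0.37), and the Gna13 clone at spot 21436 (-0.0042 and 0.28). Of the 122 marker clones 5 were called in this contrast, all lower. Among them were Trh at -1.08 and 1 clone of Aldoc, an aldolase of astrocytes, at -0.83. The others were Glul at spots 3005 and 16133 (-0.70 and -0.61) and 1 clone of Eno2, a neuronal gene (-0.70). The 26 astrocyte clones ran from -0.83 to 0.52. The part of these markers was not tested.

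At 8 h the strains differed in 1 of 22 clones, beside 0.600% of all clones. This was Gnao1 at spot 12672, which differed by 0.61 (SE 0.13, limma adjusted p = 0.024), from -0.62 in C57BL/6J and -0.010 in DBA/2J. Leaving out replicate 1, 6 or 10 of DBA/2J or replicate 8 of C57BL/6J raised its adjusted p to between 0.052 and 0.058, and the replicate block to 0.22. The other bright Gnao1 clone, spot 3722, was not called, and there the DBA/2J ratio was the lower one (-0.41, against -0.16 in C57BL/6J). Snap25 was called at -1.45 in 1 of 7 clones in the same contrast, 1 of 4 marker clones called, and its part was not tested.

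Between the times, the C57BL/6J responses differed in 1 of 22 clones, beside 0.499% of all clones. It was again Gnao1 at spot 12672, 0.97 lower at 8 h than at 4 h on the log2 scale (log2 difference -0.97, SE 0.13, limma adjusted p = 0.00078), and no array of the earlier time overlapped with one of the later. For DBA/2J the times differed in 1 of 22, beside 1.00% of all clones. Gnai2 at spot 9897 differed by 1.36 (SE 0.26, adjusted p = 0.014), with no channel above the empty spots at 8 h, and was not called with the replicate block (adjusted p = 0.16). The 4 comparisons share their non-stressed pool within a strain, and the 2 times of a strain are thus not independent of each other. Of the 122 marker clones, 2 were called higher and 0 lower between the times in C57BL/6J, among them 1 clone of Snap25 (0.76). In DBA/2J 2 were called higher, the clone of Trh (0.81) and 1 clone of Aldoc (0.70), and 1 lower, the same Snap25 clone (-0.62). With the replicate block 0 of all clones were called between the times in DBA/2J. The part of these markers was not tested.

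How far clones of 1 gene agree was asked for the 17 pairs of clones in 5 comparisons, 85 exact sign-flip permutation tests (two-sided) of the difference over 10 arrays. In 4 tests the clones differed at an adjusted p of 0.0415, each at an exact p of 0.00195, the smallest p that 10 arrays allow. Of these, 3 concerned Gnao1. Between the strains spot 3722 exceeded spot 12672 by 0.95 ± 0.34 (SD, n = 10 arrays) and spot 10508 exceeded it by 1.83 ± 0.59, each on 10 of 10 arrays, but spot 10508 had no channel above the empty spots there. The order turned in DBA/2J at 8 h, with spot 3722 lower than spot 12672 by 0.40 ± 0.22, again on 10 of 10 arrays. The fourth was Gnai2 in DBA/2J at 4 h, where spot 4032 exceeded spot 9897 by 0.73 ± 0.45 on 10 of 10 arrays, with 8 and 7 of 20 channels above the empty spots. With print-tip loess none of the 85 tests passed (smallest adjusted p = 0.0553).

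The remaining 81 tests did not pass, which does not show that those clones agree, since most pairs hold a dim clone. Over the 50 arrays, less the dye effect of each comparison, the 2 Gnai2 clones correlated at r = 0.46. The 2 bright Gnao1 clones correlated at r = 0.089, and spots 10508 and 12672 at r = -0.40. Over the other 14 pairs r lay between -0.22 and 0.26. These arrays share 6 pools, and the values are descriptions.

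Placed on 1 scale through all 50 arrays, with the non-stressed C57BL/6J pool at 0, the 6 pools ordered themselves differently for each bright clone. For Gnao1 at spot 12672 the C57BL/6J pools stood at 0.35 (4 h), 0 (non-stressed) and -0.62 (8 h, SE 0.073). The DBA/2J pools followed at -1.23 (non-stressed), -1.24 (8 h, SE 0.10) and -1.52 (4 h). Neighbours in this order differed by more than their 95% interval except for the DBA/2J non-stressed and 8 h pools, which differed by 0.010 (interval -0.14 to 0.16). Of the ratios behind this order, only the -1.23 between the strains was called in its own fit. The DBA/2J 4 h ratio of this spot also split by dye orientation, as given above. By spot 3722 only 1 step between neighbours stood clear of its interval, the 0.37 between the DBA/2J pool at rest and at 4 h (interval 0.22 to 0.52). Pools further apart in the order also differed. The DBA/2J pool at rest differed by -0.28 from that of C57BL/6J (interval -0.43 to -0.12). The DBA/2J pool at 8 h differed by -0.41 from that at rest (interval -0.57 to -0.26). None of these ratios of spot 3722 was called in its own fit.

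For Gnas the DBA/2J pools stood above the others, at 0.43 (non-stressed), 0.25 (4 h) and 0.21 (8 h), and the C57BL/6J pools at 0, -0.019 (8 h) and -0.15 (4 h). Of the steps between neighbours, 1 was clear of its interval. It was that between the DBA/2J pools at rest and at 4 h, 0.17 (interval 0.018 to 0.33). The non-stressed pools of the strains, not neighbours in this order, differed by 0.43 (interval 0.27 to 0.58). Neither ratio was called in its own fit. For Gnai2 at spot 9897 the estimates ran from 0.74 in DBA/2J at 8 h to -0.62 in DBA/2J at 4 h (each SE 0.22). No order is read from them, since this spot had no channel above the empty spots in the strain comparison and in DBA/2J at 8 h, and the interval of the 8 h ratio in its own fit ran from -0.052 to 0.79. Most pools never met on an array, so these levels rest on sums of fitted ratios.

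**Figure D5:**
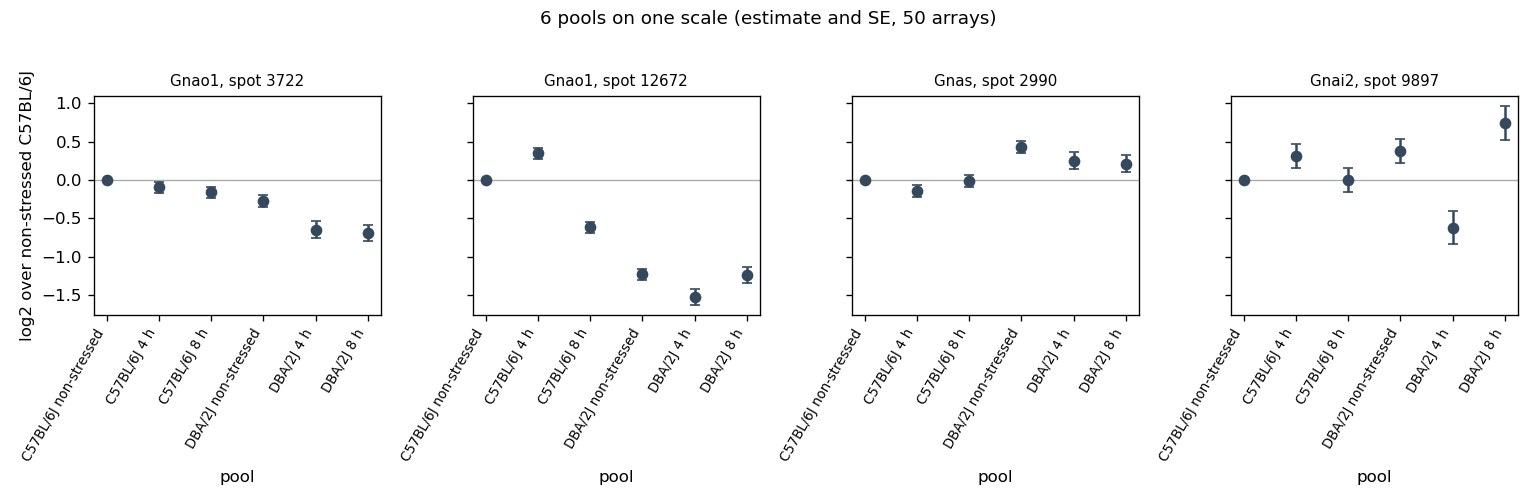
Estimated log2 level of the 6 pools relative to the non-stressed C57BL/6J pool (vertical axis) for Gnao1 3722, Gnao1 12672, Gnas 2990 and Gnai2 9897, as estimate and SE from all 50 arrays. For Gnao1 12672 every DBA/2J pool lies at -1.23 or lower, while for Gnao1 3722 no pool lies below -0.69.

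The partners and regulators of the alpha subunits were represented by 74 clones of 46 genes. Between the strains 4 of the 74 were called lower in DBA/2J and none higher, beside 2.02% of all clones called lower. They were Gng10 (-0.81, SE 0.15, limma adjusted p = 0.0077), a gamma subunit, and Gnb2 (-0.78, SE 0.18, adjusted p = 0.024) and Gnb5 (-0.53, SE 0.14, adjusted p = 0.047), beta subunits. The fourth was Kcnj9 (-1.06, SE 0.19, adjusted p = 0.0061), a subunit of the potassium channel that freed beta and gamma subunits open. Neither pool was above the empty spots on any array for Gnb2 and Kcnj9, while both were on all 10 for Gng10 and Gnb5. The median of the 74 was -0.038, against 0.0081 over all clones.

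After stress, 2 of the 74 were called, both clones of Nmt1 in DBA/2J at 4 h, beside 0.140% of all clones called lower. Nmt1 is an N-myristoyltransferase, the enzyme class that lipidates the Gi and Go alpha subunits. Spots 2405 and 7564 were at -0.997 (SE 0.14) and -0.96 (SE 0.13), each with an adjusted p of 0.011 and 10 of 10 arrays below 0, so the 2 clones of this gene gave like values. None of the 74 was called in the other 3 stress comparisons, and their medians lay between -0.080 and -0.011 there.

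In the tests of differences between the strains at 4 h, 1 of the 74 was called higher and 2 lower, beside 2.34% of all clones. They were Plcb3, a phospholipase driven by Gq (0.96, SE 0.13, limma adjusted p = 0.00032), and Nmt1 at both spots (-1.26 and -1.12). At 8 h 1 was called, beside 0.600% of all clones. This was Rgs2, which ends Gq signals (0.90, SE 0.11, adjusted p = 0.00012). Between the times in C57BL/6J 1 was called, again Rgs2 (-0.71), beside 0.499% of all clones. In DBA/2J 2 were called higher, Nmt1 (0.87 at both spots), and 1 lower, Plcb3 (-0.83), beside 1.00% of all clones. With the replicate block 0 of all clones were called between the times in DBA/2J.

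Clones with the most similar course over the 50 arrays were sought among 9299 clones with a gene name. For Gnao1 at spot 12672 they were peroxisomal biogenesis factor 13 (r = 0.82), mitochondrial aconitase 2 (r = 0.79) and the glutamate transporter solute carrier family 1, member 3 (r = 0.79). For Gnao1 at spot 3722 they were neural cell adhesion molecule 1 (r = 0.58), sterol regulatory element binding factor 2 (r = 0.58) and gene trap locus 7 (r = 0.56). The lists of the 2 bright clones had no name in common, but with so few names taken from 9299 clones nothing is read from this. For Gnai2 at spot 9897 they were a cytoplasmic dynein light chain, 2A (r = 0.73), aldolase 3, C isoform (r = 0.65) and small nuclear ribonucleoprotein N (r = 0.65). For Gnai2 at spot 4032 they were schlafen 1 (r = 0.54), tubulin, beta 5 (r = 0.52) and the interacting protein of the cytoplasmic nuclear factor of activated T-cells 2 (r = 0.49). For the dim Gnao1 spots the highest r was 0.49 at spot 6806, with Era (G-protein)-like 1, and 0.56 at spot 10508, with a vascular Rab-GAP protein, followed by DNA polymerase epsilon (0.47) and zinc finger protein 36 (0.47), and by interleukin enhancer binding factor 3 (0.55) and mitochondrial ribosomal protein L27 (0.52). Solute carrier family 1, member 3 and aldolase 3 are also on the list of astrocyte markers. Others on that list went the other way from Gnao1 at spot 12672 between the strains. Its 26 clones had a median of 0.13 there, with 4 called higher and 0 lower, and the solute carrier clone was at -0.28. Each r is over 50 arrays of the same 6 pools and is a description.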

How the data were processed

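RNA of each pool was amplified in 2 rounds by the authors, labelled with Cy3 or Cy5 and hybridised to spotted cDNA arrays of 24192 spots. The deposited scanner files hold intensity values per spot and channel, taken by the authors with QuantArray, with local backgrounds that are mostly 0. The deposited table of log2 ratios, normalized by the authors, covers 19047 spots and 13 of the 22 clones and served as an alternative. Dyes were read from the image names, and on 4 arrays the first channel was Cy3. Intensities were background-corrected (normexp, offset 50) and loess-normalized within arrays, control spots at weight 0, and fitted with limma 3.58.1 (R 4.3.3) with a dye term, Benjamini-Hochberg adjusted over 22824 clones. The scripts were tested on simulated data.

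Members and lists were chosen with earlier results of these data known. Every member clone is named or covered by a range, called ones in full, as are called clones of the pathway list. Symbols were set from full gene names, and clones whose name is a gene name stood in for clones with a symbol in the search for similar courses. Alternatives changed the background, normalization, dim filter, dye term, test, arrays and dates. Precision is set by the number of arrays. Values of 1 marker gene are not reported here.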

Additional observations from a re-analysis of the deposited data

Results flagged for a closer look

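A single array stood apart from the other 9 in 9 of the 110 sets of 10 values, 1 for each clone and comparison, and chance alone gives about 1 in 20 such sets. In C57BL/6J at 4 h these were replicate 5 of Gnao1 at spot 3722 (0.45), replicate 2 of Gnat1 (1.26) and replicate 5 of Gnai1 at spot 20213 (-0.53). In C57BL/6J at 8 h they were replicate 4 of Gnaz at spot 1687 (-1.66) and replicate 5 of Gna13 at spot 17663 (2.70). In DBA/2J they were replicate 1 of Gnai1 at spot 5508 at 4 h (1.81) and replicate 1 of Gna13 at spot 21436 at 8 h (1.02). Between the strains they were replicate 9 of Gnaz at spot 7465 (2.27) and replicate 1 of Gnat1 (1.09).

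A response that differed between strains or between times, by limma on the difference itself, was found for 3 clones. Gnai2 at spot 9897 differed by -1.30 between the strains at 4 h and by 1.36 between 8 h and 4 h in DBA/2J. Gnao1 at spot 12672 differed by -0.65 between the strains at 4 h, by 0.61 between the strains at 8 h and by -0.97 between 8 h and 4 h in C57BL/6J. Gna13 at spot 23064 differed by 0.83 between the strains at 4 h.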

How the results depend on the processing

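Of the alternatives, print-tip loess and the header date as a block each took the member clones called between the strains from 1 to 2. In C57BL/6J at 8 h, 1 clone in place of 0 was called with median centring, the filter on dim clones, the methods' t-test, the header date as a block and all 50 arrays, and in DBA/2J at 8 h 1 with median centring. In DBA/2J at 4 h, 0 in place of 1 were called without background subtraction, with the dim filter, with orientations averaged, in either orientation alone and within 1 header date, and 0 to 1 with an array left out. The 8 h strain difference gave 0 to 1 clones with an array left out. No call changed its sign. Counts over all clones swung more, from 828 between the strains to between 35 and 1234, from 66 and 19 in C57BL/6J at 4 h and 8 h to between 0 and 145 and between 0 and 197, and from 35 and 36 in DBA/2J to between 0 and 355 and between 0 and 129. With an array left out they were 564 to 667, 16 to 42, 9 to 14, 12 to 17 and 1. For the differences, the replicate block gave 127 in place of 535 and 30 in place of 137 between the strains, and 15 in place of 114 and 0 in place of 229 between the times, while all 50 arrays gave 216, 179 and 370 in place of 137, 114 and 229, and an array left out gave 62 to 99 and 116 to 198 between the times.

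Replicate numbers did not pair the arrays (correlation of same-numbered deviations, -0.016 to 0.021 over 40 pairs). With the replicate block, 0 clones were called in both strain differences and in the DBA/2J times, in place of 3, 1 and 1, and Gnao1 remained in the C57BL/6J times (adjusted p = 0.0496). Of the 85 tests between clones, 0 in place of 4 passed with print-tip loess, and 0 passed whenever an array was left out, since 9 arrays allow no p under 0.0039. Among the 25 tests possible on the authors' values 5 passed.

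Arrays of 1 header date hold both orientations in 7, 6, 8 and 4 arrays of the 4 comparisons that span several dates. Spots no brighter than the empty spots limit these data, since 17 of 22 clones between the strains and 18 in DBA/2J at 8 h had no channel above them. On the DBA/2J 8 h arrays the empty spots were themselves bright, so that count is not one of dim clones alone. Gna13 at spot 21436 passed in 0 channels there at a median Cy5 of 1162, and in 14 in DBA/2J at 4 h at 562.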
